A study of Mus musculus with 36 samples.

Results

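The spindle, kinetochore and cytokinesis genes are 52 genes whose products carry out mitosis, the division of the copied chromosomes and of the cell. They were taken by gene symbol from the rows of the count tables and all 52 were found among the 21955 genes listed. The libraries came from livers of C57BL/6JN mice, an inbred laboratory strain, taken at 6 time points of regeneration, and the question was how young and old animals differ in that response. Young mice were 4 months old and old mice 18 months old. Time points carry the labels before, 48, 72, 96, 120 and 240, with no unit and no statement of how regeneration was induced, and they are named here by those labels. With 3 libraries for every combination of age and time, described by the submitters as biological replicates, there were 12 groups and 36 libraries. No genetic change or drug is named for any group, and the study treats the old mice as the treated group.

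Most hepatocytes of an adult liver are quiescent. After loss of tissue they re-enter the cell cycle, copy their DNA and then divide, and the genes of mitosis are transcribed in G2 and M phase, after those of DNA replication. Aurora and Polo kinases drive entry into mitosis, the kinetochore joins each centromere to spindle microtubules, the checkpoint holds anaphase until all chromosomes are attached, and the anaphase-promoting complex then releases the sister chromatids. Kinesin motors and microtubule binding proteins shape the spindle, and a contractile ring at the cleavage furrow separates the daughter cells, a last step that hepatocytes often omit and so become binucleate or polyploid.

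Total counts ran from 2328233 to 6034446 per library (median 4439170), and levels below are CPM, the usual depth-scaled counts, with totals scaled by the TMM method. A group of 9 hepatocyte markers of the labelled tissue summed to between 20021 and 34165 CPM over the 36 libraries, and in young liver the sum was 29041 to 34165 before and 22295 to 23837 at 48. In 12 libraries, 1 in each group, Y-linked transcripts reached at least 177 CPM, against at most 0.212 CPM in the other 24. Age comparisons are therefore also given within the libraries with and without these transcripts, where each group has 1 and 2 libraries and no test was made. The old libraries at 48 stood apart from each other. Their biological coefficient of variation over all genes was 40.6%, against 19.4% to 27.2% in the other groups. Summed over the 52 genes, the 3 old libraries at 48 held 537, 157 and 1677 CPM, in the order of replicates 1, 2 and 3 that is kept for all values below. The third was the highest of the group for 51 of the 52 genes. Macrophage and monocyte markers (10 of 10 listed, none at 0 over the group) summed to 460, 161 and 732 CPM in the same libraries. Bile duct markers (8 of 8, none at 0) summed to 88.7, 231 and 75.7 CPM. The part of these markers in the results at 48 was not tested. The lowest library of its group for 51 of the 52 genes was replicate 2 of young 48, replicate 3 of young 72 and replicate 3 of old 96, and replicate 1 of old 72 was lowest for 49. In bulk tissue, more dividing cells and more of these transcripts per dividing cell cannot be told apart.

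In young liver nearly the whole group was induced together at 48. Of the 52 genes 51 rose against the libraries taken before, with a median log2 fold change of 5.27 over the 52 genes and -0.01 over all genes tested. A gene was called when its p, from edgeR's quasi-likelihood F test with Benjamini-Hochberg adjustment over 13436 genes, was under 0.05, and 12.2% of all genes were called higher in this comparison. Fold changes of single genes are given as log2 ± SE, and for age as old minus young. Ube2c, the ubiquitin-conjugating enzyme of the anaphase-promoting complex, had the largest value (log2 fold change 7.56, adjusted p = 1.73e-05), which rests on 4 counts of the gene in the 3 libraries before. Only Pttg1, which encodes securin, was not called at this time (log2 fold change -0.24 ± 0.40, adjusted p = 0.71). By 72 the levels were a median of 43.8% of those at 48, and 50 genes were still above their level before, at a background of 9.21% (median log2 fold change 4.06). The 2 genes not called at 72 were Pttg1 and Mastl. Cell type markers differed from before in the same young libraries. Of 9 hepatocyte markers 3 were called lower at 48 and 1 at 72. At each of these times 1 of 9 macrophage and monocyte and 1 of 3 neutrophil and erythroid markers tested were called higher. At 48 so was 1 of 10 stellate and fibroblast markers. Of 10 stellate and fibroblast markers (10 of 10 listed, none at 0) 5 were called higher at 72 and 4 at 96, and they summed to 333 to 470 CPM before, 311 to 426 at 48, 382 to 973 at 72 and 429 to 974 at 96. Of the 4 bile duct markers tested 2 were called higher at 72, and the 8 listed summed to 57.4 to 66.8 CPM before and 58.3 to 304 at 72. Of 10 endothelial markers 4 were called lower at 48 and at 72, with sums of 660 to 755 CPM before, 435 to 544 at 48 and 467 to 556 at 72. The part of these markers in the results was not tested.

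From 96 onward no member was called in young liver, but at 96 and 120 most still lay above their level before. Values lay wholly above those before for 42 members at 96 and 36 at 120, as for 13.9% and 11.7% of all genes tested. For 1 member they lay wholly below at each of these times. At 96 the median log2 fold change was 1.90 and edgeR called 0 of 52 (background 1.4% in either direction), while 31 members had an unadjusted p under 0.05, and DESeq2 called 8 higher and 1 lower and limma with library weights 1 higher and 1 lower. At 120 the median was 1.31, with 0 called by edgeR (background 0.581% in either direction), 13 at an unadjusted p under 0.05, and 0 and 1 called by DESeq2 and limma. At 240 the median was 0.51, again with 0 called (background 0.246%), 1 at an unadjusted p under 0.05 and 1 called lower by each of the other tools. With only the groups compared in the fit, 25 members were called higher and 1 lower at 96, and 11 higher at 120.

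**Figure D1:**
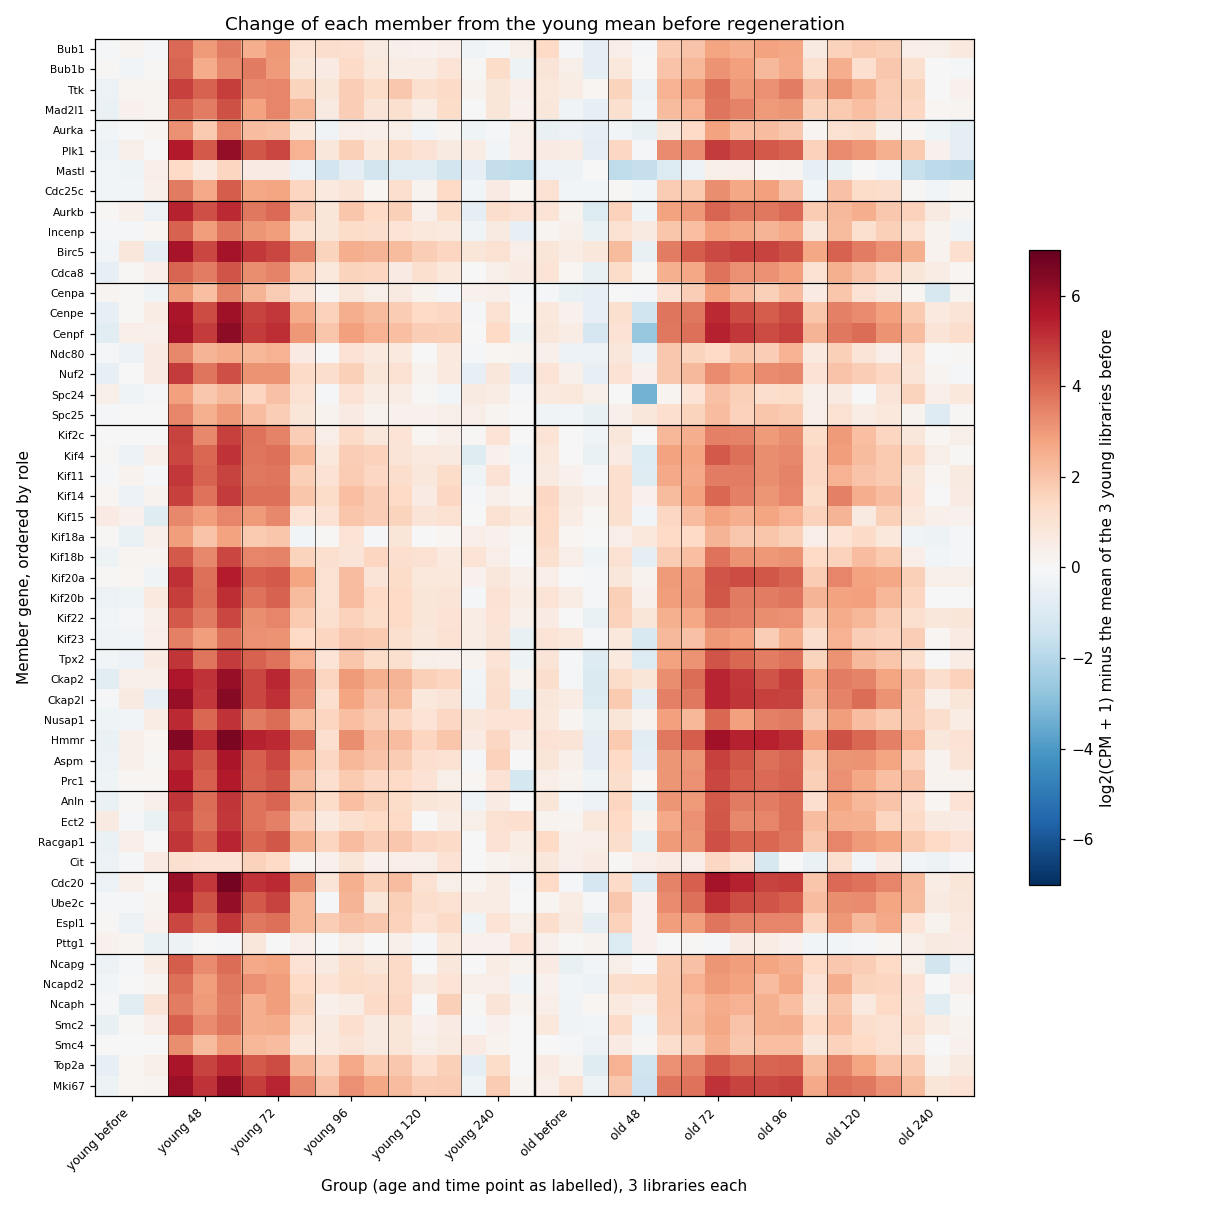
Each row is a member gene, ordered by role, and each column 1 of the 36 libraries. Colour gives log2(CPM + 1) minus the mean of the 3 young libraries before. Nearly all rows are red in the young libraries at 48 and 72, and of these replicate 3 at 72 is the palest for most rows. The old libraries at 48 differ among themselves and the old rise is seen from 72 to 120, while the rows of Mastl, Cit and Pttg1 show little red.

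In old liver most members were first called at 72. At 48, 7 members were called higher than in the old libraries before (Ube2c, Top2a, Ckap2, Anln, Kif22, Ncapd2 and Spc25) and 1, Mastl, lower. The backgrounds were 12.1% and 12% of all genes, so the share of members called higher was close to that of all genes. Values lay wholly above those before for 6 members, as for 14.9% of all genes tested. The median log2 fold change was 1.65, and 32 members had an unadjusted p under 0.05. The count of members called in either direction is unstable, since it ranged from 2 to 33 when single libraries were left out. It was 0 in the fit of the 6 libraries compared. It was 33 without old 48 replicate 2, 17 without old 96 replicate 3, 16 without young 72 replicate 3, 4 without old before replicate 2, and 2 without old before replicate 3 or old 48 replicate 3. At 72 the old liver had 47 members above their level before (background 6.54%), with a median log2 fold change of 3.59. Mastl, Spc24, Kif18a, Cit and Pttg1 were not called. Cell type markers also differed from before in old liver. At 48, among markers tested, 4 of 9 hepatocyte and 4 of 9 macrophage and monocyte markers were called lower, at a background of 12%. So were 2 of 3 T and B cell and 2 of 10 endothelial markers. At 72, 2 of 3 T and B cell and 3 of 10 endothelial markers were called lower. The same held for 1 of 9 macrophage and monocyte and 1 of 10 stellate and fibroblast markers. No listed marker was called higher at 48 or 72, and the part of these markers in the results was not tested.

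The rise in old liver was still present at later times. Values lay wholly above those before for 44 members at 96 and 46 at 120, as for 13% and 10.7% of all genes tested. At 96 they lay wholly below for 1 member. At 96, 43 of 52 members were higher than before at a background of 3.76% (median log2 fold change 3.03), and at 120, 23 were higher at a background of 1.85% (median 2.35). Both counts leaned on single libraries. At 96 the count was 27 without old before replicate 2, 13 without old before replicate 3 and 22 without old 96 replicate 2. At 120 it was 2 and 0 without the same replicates of the group before, 1 and 8 without replicates 1 and 2 of old 120, and 36 and 35 without replicates 2 and 3 of old 48. By 240 the median was 0.62 and edgeR called 0 (background 0.156% in either direction), with 2 at an unadjusted p under 0.05 and 1 called lower by DESeq2 and by limma.

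Between the ages the members did not differ detectably before regeneration. The median log2 difference, old minus young, was 0.40, and edgeR, DESeq2 and limma each called 0 of 52 (background 0.0595%), with 0 at an unadjusted p under 0.05. In the libraries with Y-linked transcripts the median difference was 1.01 and in those without it was -0.26, so the sign was not the same in both.

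At 48 the old liver held far less of these transcripts. Of 52 members 50 were lower in old than in young liver and none was higher, at backgrounds of 6.78% lower and 4.42% higher (median log2 difference -3.11, against 0.02 over all genes tested). Cdc20, the activator that turns on the anaphase-promoting complex, had the largest difference (log2 fold change -3.90 ± 0.88, adjusted p = 0.00488). Values of the 2 ages did not overlap for 51 members, which were all lower in old liver, as were 12.8% of all genes tested. Cit (log2 fold change -0.90 ± 0.48, adjusted p = 0.243) and Pttg1 (log2 fold change 0.02 ± 0.39, adjusted p = 0.987) were not called. Leaving out old 48 replicate 2, the lowest library, left 46 members called, and every single-library omission kept between 46 and 50. The median difference was -3.51 in the libraries with Y-linked transcripts and -2.95 in those without. In a fit of only these 6 libraries 0 members were called, and 28 were called among libraries without Y-linked transcripts. The cause of these lower counts was not tested.

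At 72 the mean levels of the 2 ages were close. The median difference was 0.17, no member's groups were separate (3.93% of all genes tested lay wholly higher and 4.51% wholly lower), and edgeR, DESeq2 and limma called 0 of 52 (background 0%), with 0 at an unadjusted p under 0.05. These values do not show equality, since the interval for Cdc20, for example, ran from -1.07 to 2.13 on the log2 scale. Within the split by Y-linked transcripts the medians went opposite ways at 72, with 1.52 in the libraries that hold them, where the young library is the low replicate 3, and -0.36 in those that do not.

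After 72 the members lay higher in old than in young liver, without passing the test. At 96 the median difference was 1.63 and 51 of 52 were above 0, and edgeR called 0 (background 0.171%), with 47 at an unadjusted p under 0.05 and 4 and 3 called by DESeq2 and limma. Without old 96 replicate 3, the low library, 5 members were called, 2 were called without old 48 replicate 2 and 1 without young 72 replicate 3. At 120 the median difference was 1.35 and 50 were above 0, with 0 called by edgeR, DESeq2 or limma (background 0%), 30 at an unadjusted p under 0.05 and 7 called when only these 6 libraries were fitted. Values of the 2 ages were nonetheless separate at 120 for 41 members, all higher in old liver, as against 7.81% of all genes tested, and at 96 for 8 higher and 1 lower, where 9.94% and 10.7% of all genes were separate in these directions. The median differences within the split were 1.52 and 1.23 at 96 and 0.58 and 1.45 at 120, with and without Y-linked transcripts. At 240 the median was 0.46, with 0 called by any of the 3 tools (background 0.0149%) and 0 at an unadjusted p under 0.05, and the split gave 1.15 and -0.09.

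**Figure D2:**
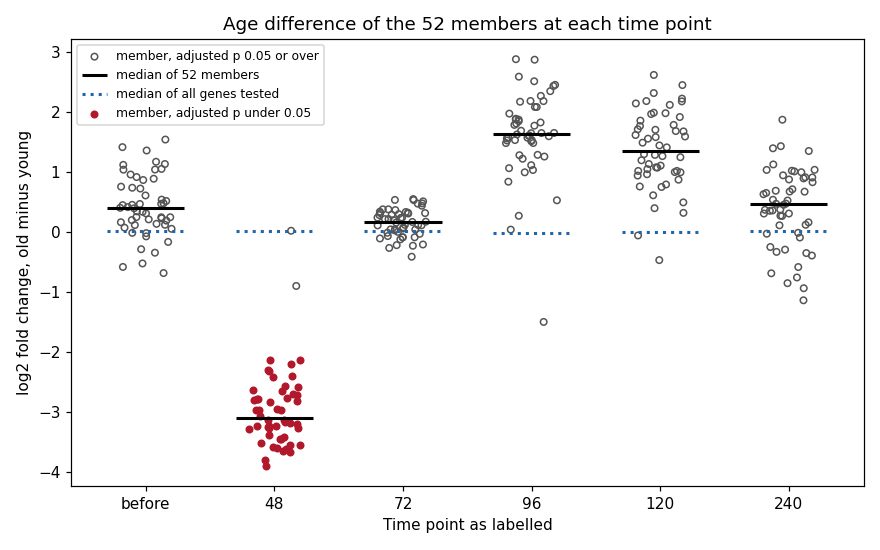
Each point is the log2 fold change of 1 member, old minus young, at the time point on the horizontal axis, filled where the adjusted p was under 0.05. Black bars are medians of the 52 members and dotted lines medians of all genes tested. The medians are -3.11 at 48, 0.17 at 72, 1.63 at 96 and 1.35 at 120, and only points at 48 are filled.

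The opposite signs cancelled in the average. Averaged over the 5 later time points the median difference was 0.11, and edgeR, DESeq2 and limma called 0 members (background 5.75%), with 2 at an unadjusted p under 0.05. A single test asked instead whether the age difference varied among the 6 time points, and it called 39 of 52 members against 2.76% of all genes. Mastl, the kinase also called Greatwall, had the smallest adjusted p (0.00129). Among the 13 not called were Top2a, Mki67, Cenpf and Kif23. The test of a single step, whether the change from before to 48 differed between the ages, called 6 members lower in old liver (Mastl, Spc24, Spc25, Kif14, Smc2 and Smc4, background 1%), with 49 at an unadjusted p under 0.05 and 38 called by DESeq2. That count was between 1 and 47 when single libraries were left out. It was 1 without young before replicate 1 or 2 or young 48 replicate 1, 2 without old before replicate 1 or old 48 replicate 2, 3 without young before replicate 3 or young 48 replicate 3, 11 without young 48 replicate 2, 12 without old 96 replicate 3, 17 without young 72 replicate 3 and 47 without old 48 replicate 3. For the test over all 6 time points the count fell to 16, 23 and 25 without old 48 replicate 1, young 48 replicate 1 and old 48 replicate 2, to 11 with limma and library weights, and to 2 among libraries without Y-linked transcripts.

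Each age had its highest mean at 1 time point for nearly all members. In young liver 50 members were highest at 48, and the exceptions were Cit at 72 and Pttg1 at 240. In old liver 49 were highest at 72, Ndc80 and Nuf2 at 96, and Pttg1 at 240. The old maximum was a median of 51.2% of the young maximum, from 31.5% for Nusap1 to 98.0% for Pttg1. Old liver at 72 was also compared with young liver at 48. These time points were chosen because earlier results of these data showed the highest values there, so the choice came from the same values. Levels between the time points were not measured. The median log2 difference was -0.97, and edgeR called 1 member, Spc25, lower (log2 fold change -1.27 ± 0.31, adjusted p = 0.0404, background 0.7%). Unadjusted p was under 0.05 for 18 members, and limma with library weights called 9. That single call was lost with total-count scaling and without any 1 of young before replicate 2, young 48 replicates 1 or 3, young 120 replicates 1 or 2, young 240 replicate 2, the 3 replicates of old 72, or old 120 replicate 2. It became 2 calls without old 48 replicate 2. From 48 to 72, 14 members rose in old liver (background 1.39%, median 2.03), a count between 0 and 47 when single libraries were left out, and in young liver 1, Spc25, fell (background 0.871%, median -1.18). The old count was 47 without old 48 replicate 3, 25 without old 72 replicate 1, 2 without old 48 replicate 1, and 0 without old 48 replicate 2, old 72 replicate 2 or old 72 replicate 3, and 49 of 52 had an unadjusted p under 0.05. The young call was lost without young 48 replicate 1 or 3 or young 72 replicate 1 or 3. It became 2 calls without young 48 replicate 2, old before replicate 1, old 48 replicate 2 or 3, old 96 replicate 3 or old 120 replicate 1. Within the split by Y-linked transcripts the young step was -2.73 in the libraries that hold them and -0.48 in those that do not.

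Genes of late cell cycle often share promoter motifs, and the members moved together, so their promoters were read. The CCAAT box is bound by the factor NF-Y, and the letters TTTGAA or TTTAAA, known as the cell cycle genes homology region, are bound by the MuvB complex that acts with B-Myb and FoxM1. Promoters from RefSeq (GRCm38.p6, 250 bases before to 50 after the start) were held for 45 of the 52 members, and both strands were searched. TTTGAA occurred in 34 of 45 members (75.6%) and in 20.2% of 27025 genes with a promoter. CCAAT occurred in 71.1% against 41.1%, and 2 or more CCAAT in 42.2% against 13.3%. Both CCAAT and either form of the homology region were present in 66.7% of members and in 12.2% of genes. These are shares of letters in a window, not of bound sites.

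The last 120 bases before the start are shown 5′ to 3′ on the gene's strand. They are given for 5 induced members that hold both a CCAAT and a homology region there, and for the 3 whose levels departed most from the group. The 5 are not the 5 most induced members. Over the alternative fits, Hmmr rose by 6.53 to 7.48 on the log2 scale in young liver at 48, and Top2a by 5.11 to 5.66. Hmmr, Kif2c, Birc5 and Nuf2 rose at 48 and do not hold the pair within this stretch. Capitals mark the CCAAT box and both forms of the homology region. Where the box lies on the other strand it reads ATTGG, and a homology region there may read as TTCAAA. Ube2c (chr2:164769809-164769928, + strand), Cdc20 (chr4:118437344-118437463, - strand), Top2a (chr11:99024190-99024309, - strand), Plk1 (chr7:122159315-122159434, + strand) and Espl1 (chr15:102296173-102296292, + strand) hold a CCAAT and a homology region within this stretch. Mastl (chr2:23156025-23156144, - strand) holds CCAAT alone, and Cit (chr5:115845536-115845655, + strand) and Pttg1 (chr11:43425982-43426101, - strand) hold neither.
Ube2c: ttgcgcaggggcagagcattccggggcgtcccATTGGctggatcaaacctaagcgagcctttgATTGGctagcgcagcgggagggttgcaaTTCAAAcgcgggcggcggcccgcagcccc
Cdc20: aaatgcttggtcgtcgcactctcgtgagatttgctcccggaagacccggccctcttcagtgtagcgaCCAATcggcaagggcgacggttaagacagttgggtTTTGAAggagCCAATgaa
Top2a: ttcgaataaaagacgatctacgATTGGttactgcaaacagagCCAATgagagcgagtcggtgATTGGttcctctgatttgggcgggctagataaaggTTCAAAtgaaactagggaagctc
Plk1: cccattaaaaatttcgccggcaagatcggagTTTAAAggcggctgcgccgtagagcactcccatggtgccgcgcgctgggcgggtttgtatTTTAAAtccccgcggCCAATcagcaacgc
Espl1: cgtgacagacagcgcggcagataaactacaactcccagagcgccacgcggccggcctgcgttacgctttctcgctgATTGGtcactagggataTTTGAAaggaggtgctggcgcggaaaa
Mastl: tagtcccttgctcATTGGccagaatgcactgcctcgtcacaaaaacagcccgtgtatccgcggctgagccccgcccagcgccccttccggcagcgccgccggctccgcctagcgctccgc
Cit: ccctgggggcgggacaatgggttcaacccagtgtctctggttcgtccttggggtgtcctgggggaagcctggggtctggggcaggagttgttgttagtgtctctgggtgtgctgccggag
Pttg1: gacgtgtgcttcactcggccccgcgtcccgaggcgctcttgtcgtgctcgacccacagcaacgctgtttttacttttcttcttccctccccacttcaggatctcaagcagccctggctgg
For Cit and Pttg1 the RefSeq start lies 378 and 270 bases inside the GENCODE M21 gene, 12 and 0 bases from the nearest annotated transcript start, so these stretches do not cover the outermost start. In 8 of the 45 members the RefSeq start lies 100 or more bases inside the GENCODE gene. In the window of 250 bases before to 50 after the start, 7 of the 45 members hold none of the 3 motifs. These are Cit, Pttg1, Nuf2, Kif18a, Nusap1, Ncaph and Mad2l1, and the last 5 rose in young liver at 48. For Mad2l1 the RefSeq start lies 169 bases before the nearest annotated transcript start. The bases just before that transcript start were therefore not searched.

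Mitotic entry and the spindle pole were represented by the kinases Plk1, Aurka and Mastl and the phosphatase Cdc25c, which activates Cdk1. Plk1, which drives centrosome maturation and cytokinesis, was at 0.416, 1.49 and 0.969 CPM in young liver before, 88.1, 36.7 and 137 CPM at 48, 37.3, 47.9 and 9.16 CPM at 72 and 2.35, 5.13 and 2.21 CPM at 96. In old liver it was at 1.88, 1.79 and 0.228 CPM before, 4.22, 0.810 and 17.6 CPM at 48, 17.9, 54.8 and 42.7 CPM at 72, 36.1, 32.1 and 4.78 CPM at 96 and 17.9, 14.6 and 9.62 CPM at 120. All old libraries lay below all young ones at 48 (log2 fold change -3.52 ± 0.78, adjusted p = 0.00409), the groups overlapped at 72 and at 96, and all old libraries lay above the young ones at 120 (young 3.90, 2.78 and 2.00 CPM), where the difference was not called (log2 fold change 2.22 ± 0.88, adjusted p = 0.377). Aurka, the Aurora kinase of the spindle poles, started higher, at 6.87, 7.71 and 9.20 CPM in young liver, and rose to 79.7, 31.0 and 94.4 CPM at 48. Its old values were 6.89, 5.27 and 14.3 CPM at 48, 22.4, 60.8 and 37.1 CPM at 72 and 38.6, 31.6 and 9.28 CPM at 96. Aurka was lower in old liver at 48 (log2 fold change -2.95 ± 0.48, adjusted p = 0.00044).

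**Figure D3:**
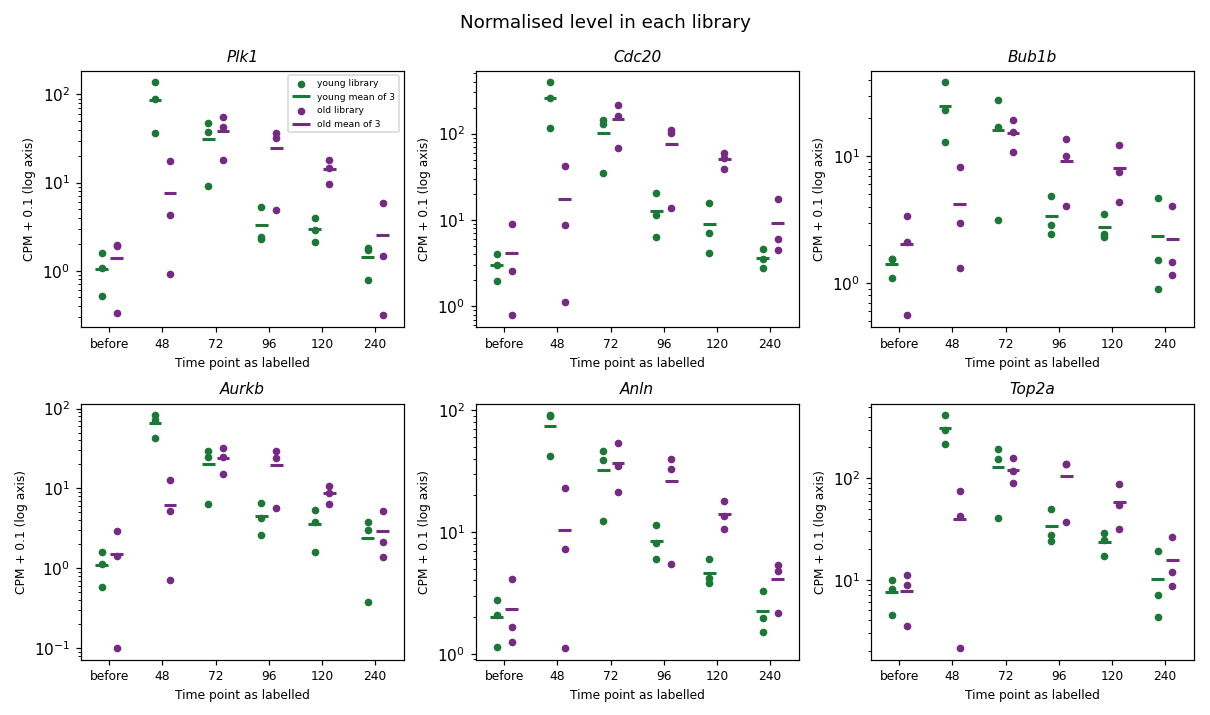
CPM + 0.1 on a log axis in each library for 6 members with different roles. Points are libraries and bars the means of 3, green for young and purple for old liver. For Plk1, Cdc20, Bub1b, Aurkb, Anln and Top2a the 3 old libraries lie below the 3 young ones at 48, and they spread over more than 10-fold for Plk1, Cdc20, Aurkb, Anln and Top2a.

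The checkpoint genes Bub1, Bub1b, Ttk and Mad2l1 encode the proteins that hold back anaphase. All 4 were called higher in young liver at 48 and at 72, all 4 in old liver at 72 and 3 at 96, and all 4 were lower in old than young liver at 48. Bub1b, the BubR1 protein of the checkpoint complex, read 1.46, 0.995 and 1.45 CPM in young liver before, 38.2, 12.9 and 22.9 CPM at 48 and 27.9, 17.0 and 3.05 CPM at 72. Old liver gave 3.29, 2.01 and 0.456 CPM before, 2.89, 1.22 and 8.18 CPM at 48, 10.7, 19.4 and 15.5 CPM at 72 and 9.88, 13.6 and 3.94 CPM at 96. The groups did not overlap at 48 (log2 fold change -2.59 ± 0.65, adjusted p = 0.0094) and overlapped at 72. Mad2l1, whose product binds and blocks Cdc20, had old values of 11.1, 3.85 and 24.5 CPM at 48, against 95.6, 63.6 and 119 CPM in young liver (log2 fold change -2.81 ± 0.53, adjusted p = 0.00118).

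The chromosomal passenger complex joins the kinase Aurkb to its partners Incenp, Birc5 and Cdca8 at the inner centromere and later at the midzone. Aurkb was at 1.04, 1.49 and 0.484 CPM in young liver before, 82.5, 43.2 and 72.2 CPM at 48, 24.3, 29.7 and 6.36 CPM at 72 and 2.51, 6.46 and 4.15 CPM at 96. Old liver had 2.82, 1.34 and 0 CPM before, 5.11, 0.608 and 12.7 CPM at 48, 15.2, 31.6 and 24.7 CPM at 72, 24.0, 29.6 and 5.63 CPM at 96 and 8.62, 10.6 and 6.34 CPM at 120. At 48 the ages were separate (log2 fold change -3.42 ± 0.71, adjusted p = 0.00227), and 2 of the 3 old libraries at 96 were near the level of old 72. Birc5, or survivin, kept a higher level than before at 120 in old liver (39.1, 26.1 and 20.3 CPM, log2 fold change 3.35 ± 0.78, adjusted p = 0.0165), where young liver read 9.55, 6.48 and 5.42 CPM. All 4 genes of the complex were lower in old than young liver at 48, with Incenp the least changed at a log2 difference of -2.42.

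At the centromere and kinetochore 7 genes were measured, and all 7 were lower in old liver at 48 (median log2 difference -2.96). Cenpa, the histone H3 variant that marks the centromere, was at 4.16, 3.73 and 2.66 CPM before and 34.0, 18.4 and 48.5 CPM at 48 in young liver. The old values were 3.05, 2.23 and 2.05 CPM before, 3.33, 3.04 and 7.98 CPM at 48, 13.5, 30.7 and 19.3 CPM at 72 and 13.3, 19.2 and 5.63 CPM at 96. Its groups were separate at 48 (log2 fold change -2.80 ± 0.47, adjusted p = 0.000469). Ndc80, Nuf2, Spc24 and Spc25 are the subunits of the Ndc80 complex, the main microtubule anchor. Ndc80 was scarce in every library, with 12.7, 5.95 and 7.15 CPM at its highest in young 48 and 1.33, 0 and 3.89 CPM in old 48 (log2 fold change -2.30 ± 0.74, adjusted p = 0.0392). Cenpf, a large protein of the outer kinetochore, rose the most of the 7 in young liver at 48 (log2 fold change 5.79), and Spc24 the least (2.46).

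All 11 kinesins rose in young liver at 48 and were lower in old than young liver at that time point. Kif20a, the motor that brings the passenger complex to the midzone, was at 4.16, 4.48 and 3.15 CPM in young liver before, 168, 69.6 and 218 CPM at 48, 86.8, 94.3 and 32.3 CPM at 72 and 9.22, 20.5 and 8.02 CPM at 96. In old liver it was at 7.34, 4.86 and 37.6 CPM at 48, 39.8, 104 and 115 CPM at 72, 97.9, 81.3 and 15.8 CPM at 96 and 51.1, 33.1 and 30.9 CPM at 120. All 3 old libraries at 120 exceeded the young ones, which had 10.7, 7.23 and 7.14 CPM (log2 fold change 2.18 ± 0.68, adjusted p = 0.265). Kif11, which pushes the spindle poles apart, was lower in old liver at 48 (log2 fold change -3.17 ± 0.61, adjusted p = 0.00129). Kif23, which with Racgap1 forms the centralspindlin complex, was at 4.67, 0.608 and 15.5 CPM in old and 38.7, 24.6 and 47.6 CPM in young liver at 48, and its values at 96 overlapped between old (10.3, 19.2 and 7.03 CPM) and young liver (8.72, 11.4 and 11.1 CPM). The kinesin with the smallest difference at 48 was Kif18a, which limits chromosome oscillation (log2 fold change -2.13 ± 0.57, adjusted p = 0.0134).

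The spindle microtubule factors moved as a block, with all 7 called in young liver at 48 and 72, in old liver at 72 and 96, and between the ages at 48. Tpx2, which activates Aurka on the spindle, was at 71.7, 29.8 and 67.8 CPM in young 48 and 40.0, 30.9 and 11.5 CPM in young 72. Old liver had 2.67, 0.203 and 14.9 CPM at 48, 19.1, 48.4 and 36.9 CPM at 72 and 27.1, 30.8 and 5.91 CPM at 96. The 7 log2 differences at 48 lay between -3.81 for Hmmr and -3.24 for Tpx2, the narrowest range among the 9 roles into which the members were sorted. At 120 in old liver 5 of the 7 were still above their level before, among them Hmmr (42.4, 31.3 and 22.3 CPM against 3.05, 2.68 and 0.228 CPM before, log2 fold change 3.98 ± 0.97, adjusted p = 0.022).

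For cytokinesis the 4 genes were Anln, Ect2, Racgap1 and Cit. Anln, the scaffold of the contractile ring, was at 1.04, 1.99 and 2.66 CPM in young liver before, 88.7, 41.9 and 90.9 CPM at 48, 38.8, 46.2 and 12.2 CPM at 72 and 5.87, 11.2 and 8.02 CPM at 96. The old values were 3.99, 1.56 and 1.14 CPM before, 7.11, 1.01 and 22.7 CPM at 48, 21.1, 53.8 and 34.5 CPM at 72, 33.1, 39.9 and 5.34 CPM at 96 and 17.9, 13.4 and 10.4 CPM at 120. Anln was among the members called above their level before in old liver at 48 (adjusted p = 0.0472), where the share called was close to that of all genes. Old 48 replicate 2 was below all 3 libraries before. This call of Anln held in 14 of 47 alternatives, with adjusted p up to 0.4997. Ect2, which activates RhoA at the furrow, was at 31.3, 42.8 and 12.9 CPM in old and 3.86, 5.70 and 6.91 CPM in young liver at 96. These did not overlap, and Ect2 had the smallest adjusted p of the members at 96 (log2 fold change 2.43 ± 0.60, adjusted p = 0.0644).

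Genes around the anaphase-promoting complex, here Cdc20, Ube2c, Espl1 and Pttg1, included the steepest changes and the flattest. Cdc20 was at 1.87, 3.98 and 2.91 CPM in young liver before, 259, 117 and 392 CPM at 48, 128, 142 and 35.1 CPM at 72 and 6.20, 20.1 and 11.3 CPM at 96. Old liver gave 8.92, 2.46 and 0.684 CPM before, 8.67, 1.01 and 41.7 CPM at 48, 67.3, 215 and 159 CPM at 72, 102, 110.4 and 13.8 CPM at 96 and 59.0, 51.9 and 39.3 CPM at 120. At 120 all old libraries were above the highest young one (young 15.8, 7.04 and 4.00 CPM; log2 fold change 2.45 ± 0.88, adjusted p = 0.349). Ube2c was at 3.78, 0.608 and 11.9 CPM in old 48 and 72.9, 27.7 and 90.9 CPM in young 48 (log2 fold change -3.55 ± 0.75, adjusted p = 0.00269). Its old values at 96, 27.1, 23.0 and 4.78 CPM, overlapped the young 0.168, 5.70 and 1.38 CPM, and its log2 difference there was the highest of the members (log2 fold change 2.88 ± 0.83, adjusted p = 0.111). Espl1, the separase that cuts cohesin, followed the group (log2 fold change -2.78 ± 0.56, adjusted p = 0.00189).

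The condensin subunits Ncapg, Ncapd2, Ncaph, Smc2 and Smc4 compact mitotic chromosomes, Top2a untangles them and Mki67 coats their surface. All 7 were called in young liver at 48 and 72, in old liver at 72 and 96, and between the ages at 48. Ncapg was at 45.3, 22.8 and 34.7 CPM in young 48 and at 2.22, 1.42 and 7.16 CPM in old 48 (log2 fold change -3.24 ± 0.55, adjusted p = 0.000495). Smc2 was at 3.54, 5.72 and 7.75 CPM in young liver before and 118, 62.1 and 84.8 CPM at 48, and its old values were 15.6, 4.66 and 20.2 CPM at 48 and 29.3, 41.4 and 24.7 CPM at 72. Smc4 had the smallest rise of the 7 (log2 fold change 2.94). Top2a was at 42.7, 2.03 and 73.8 CPM in old 48 and 416, 217 and 295 CPM in young 48 (log2 fold change -2.97 ± 0.75, adjusted p = 0.0103). Mki67, which encodes the proliferation marker Ki-67, was at 2595, 1404 and 2867 CPM in young liver at 48, after at most 46.5 CPM before. In old liver Mki67 was at 154, 14.0 and 561 CPM at 48, 576, 1364 and 1100.4 CPM at 72, 1031, 1108 and 263 CPM at 96 and 591, 525 and 383 CPM at 120. The ages were separate at 48 (log2 fold change -3.23 ± 0.81, adjusted p = 0.00941) and overlapped at 72, where young liver read 1166, 1694 and 425 CPM.

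A set of 4 genes departed from the shared course, by the correlation of log2(CPM + 1) with the mean of the other members over the 36 libraries, which share depth and group structure and carry no test here. Pearson's r was -0.18 for Pttg1, 0.46 for Cit, 0.69 for Mastl and 0.73 for Spc24, and at least 0.88 for the others.

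**Figure D4:**
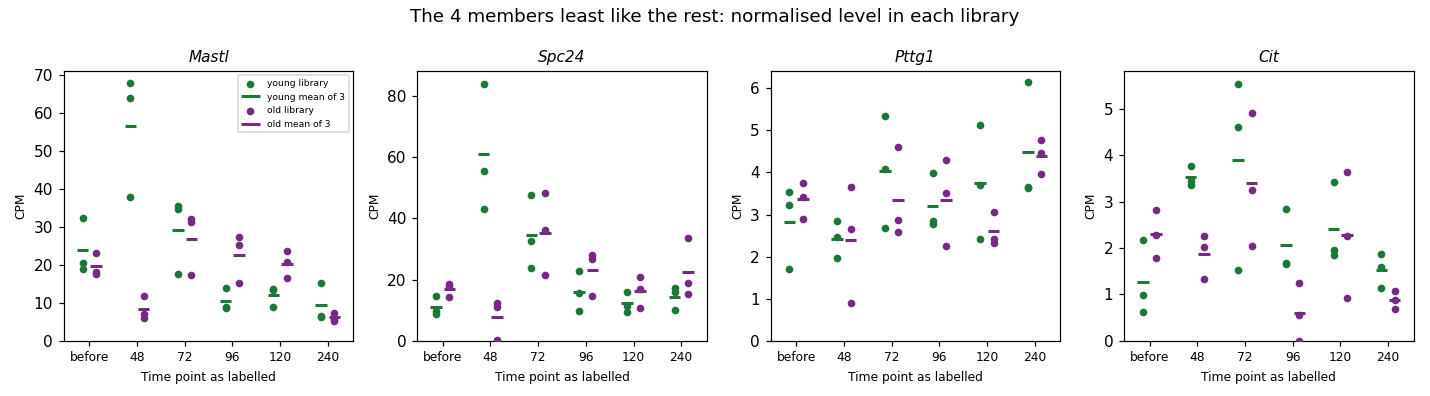
CPM in each library for Mastl, Spc24, Pttg1 and Cit on linear axes that start at 0, with bars at the mean of 3. Pttg1 stays between 0.889 and 6.16 CPM and Cit between 0 and 5.54 CPM in all libraries, while all libraries of Mastl lie below those before at old 48, at young 96 and 120, and at 240 in both ages.

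Pttg1 (GRCm38 chr11:43420250-43426251, - strand) encodes securin, which restrains separase. It read 3.54, 3.23 and 1.70 CPM in young liver before, 1.96, 2.85 and 2.46 CPM at 48 and 5.35, 2.67 and 4.07 CPM at 72. Old liver read 3.76, 2.90 and 3.42 CPM before, 0.889, 3.65 and 2.66 CPM at 48 and 2.87, 2.57 and 4.59 CPM at 72. No comparison called it, and its interval at 48, old minus young, was -0.79 to 0.82 on the log2 scale, which does not reach the median of the members. Cit (GRCm38 chr5:115845278-116008947, + strand) encodes citron kinase, which acts at the midbody. It was at 0.624, 0.995 and 2.18 CPM in young liver before, 3.76, 3.36 and 3.45 CPM at 48 and 5.54, 4.62 and 1.53 CPM at 72, a called rise at both times (log2 fold changes 1.48 and 1.64). Its old values were 2.82, 1.79 and 2.28 CPM before, 1.33, 2.03 and 2.25 CPM at 48 and 0, 1.24 and 0.563 CPM at 96, and it was the only member below young liver at 96 (log2 fold change -1.50 ± 0.61, adjusted p = 0.27).

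Mastl (GRCm38 chr2:23115606-23156024, - strand) restrains the phosphatase PP2A during mitosis. In young liver it was at 20.6, 18.9 and 32.4 CPM before, 64.1, 37.8 and 68.0 CPM at 48, 35.6, 34.8 and 17.6 CPM at 72, 8.55, 13.9 and 8.85 CPM at 96 and 15.2, 6.60 and 6.16 CPM at 240. Old liver gave 17.6, 18.1 and 23.0 CPM before, 6.00, 7.09 and 11.7 CPM at 48, 17.2, 31.4 and 32.2 CPM at 72, 25.3, 27.3 and 15.2 CPM at 96 and 7.26, 5.79 and 5.31 CPM at 240. All 3 old libraries at 48 lay below all 3 taken before, a called fall (log2 fold change -1.24 ± 0.35, adjusted p = 0.0109), and below the young libraries at 48 with the smallest adjusted p of the members (log2 fold change -2.77 ± 0.35, adjusted p = 4.77e-05). Young libraries at 96 and 120 (13.4, 13.5 and 8.85 CPM at 120) also lay below those before without being called (adjusted p = 0.0704 and 0.207). The values at 240 were below those before in both ages and were not called (adjusted p = 0.141 in young and 0.0538 in old liver). Spc24 was at 17.8, 18.5 and 14.4 CPM in old liver before and 11.1, 0.203 and 12.3 CPM at 48, where replicate 2 had almost none, and at 21.6, 48.2 and 36.4 CPM at 72. In young liver Spc24 was at 14.8, 8.70 and 9.69 CPM before and 84.2, 43.2 and 55.7 CPM at 48.

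Per kilobase of exon (GENCODE M21 gene models, a comparison between genes that leaves unspliced RNA uncorrected), the mean level in young 48 was highest for Mki67 at 227 CPM per kilobase and for Cdc20 at 137. It was lowest for Cit at 0.215, Kif18a at 0.993 and Pttg1 at 1.21. Old liver at 72 had the same 2 genes highest, at 101 for Mki67 and 78.8 for Cdc20. In that annotation 15 members share exon bases with another gene, 6 of them over more than 10% of their length (Kif20a with Cdc23, Ube2c with Tnnc2, Kif4 with Pdzd11, Ncapg with Lcorl, Cdc25c with Gm3550 and Prc1 with Rccd1, all on the opposite strand). Since the use of strand in the counting is not given in the sources used here, the levels of these 6 are uncertain.

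Most other genes of mitosis were also called in young liver at 48 and 72 and in old liver at 72. A list of further mitosis genes held 82 symbols, in which some genes had both an older and a newer symbol. Of these symbols 78 were found and 77 were tested. Of the 77, 72 rose in young liver at 48 (median log2 fold change 3.80) and 57 at 72. In old liver 14, 57, 45 and 9 were higher than before at 48, 72, 96 and 120, and none was lower, where 12.1%, 6.54%, 3.76% and 1.85% of all genes were called higher. At 48, 69 of the 77 were lower in old than young liver (median log2 difference -2.48), from Ccnb1, the cyclin partner of Cdk1, at -4.08 to the checkpoint gene Mad1l1 at 0.21, which was not called. At 96 and 120 edgeR called none of the 77, with medians of 1.22 and 0.78, and Ccnb1 was the highest at both times (2.98 and 3.12). The 10 genes outside the members whose log2(CPM + 1) was most correlated with the mean of the members over the 36 libraries were Arhgap11a, Ccna2, Neurl1b, Cdca2, Iqgap3, Kifc1, Troap, Sgol2a, Casc5 and Cdca3 (Pearson's r from 0.990 to 0.981). All but Neurl1b were on the list of further mitosis genes.

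DNA replication genes, which act earlier in the cycle, also rose and fell in both ages, over a smaller range. The mean of log2(CPM + 1) over the 52 members was 1.77 ± 0.18 (SD, n = 3) in young liver before, 5.88 ± 0.55 at 48, 4.66 ± 0.94 at 72 and 3.01 ± 0.40 at 96. Over 36 replication genes it was 2.49 ± 0.14, 4.59 ± 0.18, 3.62 ± 0.36 and 2.93 ± 0.25. In old liver the members were at 1.96 ± 0.51 before, 2.77 ± 1.29 at 48, 4.92 ± 0.55 at 72, 4.31 ± 1.01 at 96 and 3.90 ± 0.34 at 120. The replication genes of old liver were at 2.57 ± 0.34, 3.15 ± 0.52, 3.63 ± 0.21, 3.69 ± 0.24 and 3.10 ± 0.34. Between 48 and 72 in old liver, edgeR called 0 of 35 replication genes (median log2 fold change 0.39), beside 14 of 52 members (median 2.03) and 1.39% of all genes, and the 14 became 0 in the fit of only these groups, in limma with library weights and without old 48 replicate 2. In old 48, replicate 1 had the highest mean of replication genes (3.56) and replicate 3 the highest mean of members (4.07), so the 2 groups did not rank the 3 libraries alike. The difference between the 2 lists was not tested.

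**Figure D5:**
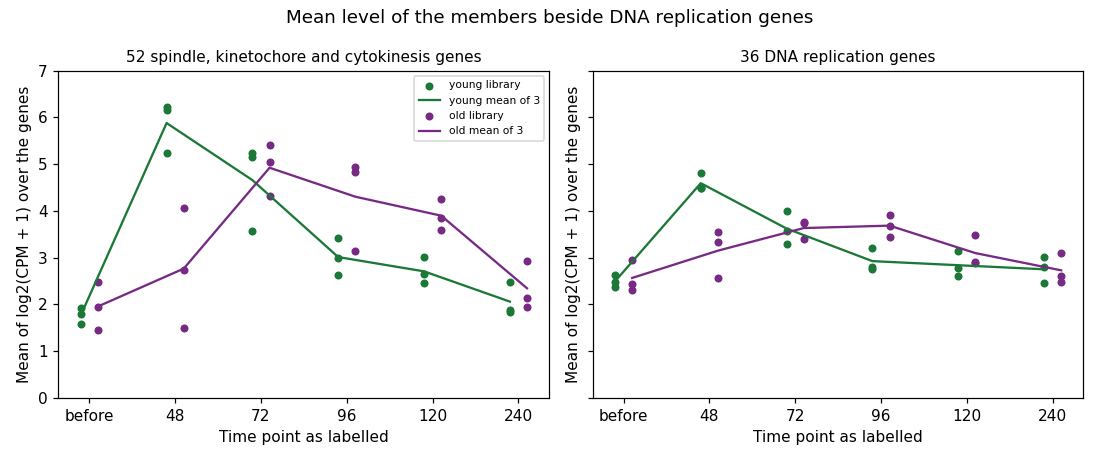
Mean of log2(CPM + 1) over the 52 members (left) and over 36 DNA replication genes (right) in each library, with lines through the means of 3. Young liver is highest at 48 in both panels. In old liver the members are highest at 72 (4.92), while the replication genes have similar means at 72 (3.63) and 96 (3.69).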

How the data were processed

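Total RNA depleted of ribosomal RNA was sequenced from 36 frozen liver samples, per the labels' protocols. The authors deposited raw counts per gene symbol, 1 table per library, not normalized. Per the submitters' processing notes the tools included bcl2fastq 2.20.0, Trimmomatic 0.39, STAR 2.7.5b and featureCounts, with the build GRCm38. The annotation and the use of strand are not given in the sources used here. The labels describe ERCC spike-in RNA, and the tables held 0 ERCC rows, so levels are relative to the total of each library.

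The 52 members, the lists of other genes and the tests were chosen with earlier results of these data known. All members may be named, with values in every library for those the text turns on and for the extremes of each comparison. Counts were fitted with edgeR 4.0.16 in R 4.3.3: TMM scaling (factors 0.930 to 1.13), filterByExpr on the 12 groups (13436 genes, with all 52 members tested), 1 mean per group over all 36 libraries, robust quasi-likelihood F tests, Benjamini-Hochberg adjustment over all genes tested and a threshold of 0.05. A standard error is the log2 fold change divided by the square root of F. Group means of log2 levels used a pseudocount of 1. The scripts were tested on simulated data. Alternatives were other scalings and filters, DESeq2 1.42.0, a replicate block, fits of only the groups compared, fits with the Y-linked split, each library left out in turn, and, chosen after the data had been seen, limma 3.58.1 with a weight per library and a fit without robust estimation. Depth limits low members: 3 counts equalled 0.490 to 1.29 CPM. The replicate numbers recur in all groups with no statement that they mark a shared animal or day, so no block was used.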

Additional observations from a re-analysis of the deposited data

Results flagged for a closer look

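The members in this section are those for which the age difference varied among the time points, by the edgeR quasi-likelihood F test of age by time over 13436 genes, of which 2.76% were called. It called 39 of 52 members. The change from before to 48, old minus young, had a median of -3.42 on the log2 scale over the 52, and the edgeR test of that step alone called 6 of them. The values ran from -5.06 for Cdc25c (adjusted p = 0.21) to -0.22 for Pttg1 (adjusted p = 0.898), neither of which was called by the test over all time points. The uneven old libraries at 48 enter all of these values, and the count was between 16 and 48 when single libraries were left out, with 16 without old 48 replicate 1 and 48 without old 48 replicate 3.

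Among the checkpoint genes, 3 of 4 were called, with adjusted p = 0.0133 for Bub1, 0.00857 for Ttk and 0.0102 for Mad2l1. Among the genes of mitotic entry, 3 of 4 were called, with adjusted p = 0.00498 for Aurka, 0.0162 for Plk1 and 0.00129 for Mastl. Of the passenger complex, 4 of 4 were called, with adjusted p = 0.0205 for Aurkb, 0.019 for Incenp, 0.013 for Birc5 and 0.0193 for Cdca8. Among the kinetochore genes, 4 of 7 were called, with adjusted p = 0.00498 for Cenpa, 0.0138 for Nuf2, 0.0229 for Spc24 and 0.00201 for Spc25. Among the kinesins, 8 of 11 were called, with adjusted p = 0.00857 for Kif2c, 0.0198 for Kif4, 0.015 for Kif11, 0.00498 for Kif14, 0.00857 for Kif18b, 0.00857 for Kif20a, 0.0111 for Kif20b and 0.00383 for Kif22. Among the spindle factors, 7 of 7 were called, with adjusted p = 0.0283 for Tpx2, 0.00857 for Ckap2, 0.0229 for Ckap2l, 0.0135 for Nusap1, 0.0138 for Hmmr, 0.0354 for Aspm and 0.0191 for Prc1. Among the cytokinesis genes, 3 of 4 were called, with adjusted p = 0.036 for Anln, 0.0054 for Ect2 and 0.011 for Racgap1. Of the genes around the anaphase-promoting complex, 3 of 4 were called. Their adjusted p was 0.0221 for Cdc20, 0.0108 for Ube2c and 0.0165 for Espl1. Among the chromosome compaction genes, 4 of 7 were called, with adjusted p = 0.00558 for Ncapg, 0.00973 for Ncapd2, 0.00417 for Smc2 and 0.00505 for Smc4.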

How the results depend on the processing

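The number of members called was recomputed under each alternative, and the cause of the changes below was not tested. Counts against before in young liver at 48 and 72, in old liver at 72, and between the ages before, at 72 and at 240 stayed within 1.5 times under every alternative. Among single members called in some comparison, no log2 fold change changed sign. With the other counts, DESeq2 called 9 in young 96, 1 in young 240, 24 in old 48, 38 in old 120, 1 in old 240, 4 between the ages at 96, 2 in old 72 against young 48, 2 in young 72 against 48, 28 in old 72 against 48 and 38 for the age difference in the change from before to 48. In limma with library weights the counts were 2 in young 96, 1 in young 120, 1 in young 240, 5 in old 48, 1 in old 240, 3 between the ages at 96, 9 in old 72 against young 48, 9 in young 72 against 48, 0 in old 72 against 48, 3 for the change to 48 and 11 for the interaction. Fits of only the groups compared gave 26 in young 96, 11 in young 120, 0 in old 48, 13 in old 96, 0 between the ages at 48, 7 between the ages at 120, 0 for the change to 48, and 0 in young and 0 in old liver for 72 against 48. Only libraries without Y-linked transcripts gave 1 in young 240, 5 in old 48, 14 in old 96, 12 in old 120, 28 between the ages at 48, 0 in old 72 against young 48, 0 in young and 0 in old liver for 72 against 48, 0 for the change to 48, and 2 for the interaction. With these transcripts as a term the counts were 1 in old 240 and 2 in young 72 against 48. With no filter on low counts there were 4 in old 48, 7 in old 120, 0 in old 72 against young 48, 3 in old 72 against 48 and 3 for the change to 48. Total-count scaling gave 0 in old 72 against young 48 and 0 in young 72 against 48, and it moved the median of all genes from before by 0.21 in young 72, 0.13 in young 96, 0.10 in young 120 and 0.11 in old 72 on the log2 scale. Without robust estimation there were 15 in old 48 and 2 in young 72 against 48.

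With the replicate block nested in age, counts were 5 in old 48, 13 in old 120, 0 in old 72 against young 48, 2 in young 72 against 48 and 7 in old 72 against 48, and other counts stayed within 1.5 times. Deviations of same-numbered libraries had correlations that averaged 0.06 within an age and ran from -0.38 to 0.58. Between old and young libraries of the same number they averaged 0.05. Young replicate 1 held 297 CPM of Y-linked transcripts before and 0 at 48, and old replicate 1 held 260 CPM before and 0 at 72. A number therefore did not follow 1 animal over all time points. Whether it marks a shared day was not settled.

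Leaving out single libraries gave 50 to 51 in young 48, 45 to 50 in young 72, 0 to 2 in young 96, 0 in young 120, 0 to 1 in young 240, 2 to 33 in old 48, 40 to 49 in old 72, 13 to 46 in old 96, 0 to 36 in old 120 and 0 to 1 in old 240. Between the ages they gave 46 to 50 at 48, 0 to 5 at 96, 0 before and at 72, 120 and 240, and 0 to 1 for the average of later times. For old 72 against young 48 the range was 0 to 2, for young 72 against 48 it was 0 to 2, for old 72 against 48 it was 0 to 47, for the change to 48 it was 1 to 47, and for the interaction 16 to 48. Members with under 10 counts in a group before, such as Ube2c, Kif2c, Ttk and Cdc25c, have the least certain fold changes.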
